A study of Homo sapiens with 9 samples.

Results

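The guanylate-binding proteins GBP1, GBP2, GBP3, GBP4 and GBP5 were followed in RNA sequencing of MV4-11, a human acute myeloid leukaemia line with an MLL fusion. They were taken by symbol, and 5 of the 60612 genes in the deposited table matched. The table holds 9 libraries in FPKM, a fragment count scaled for transcript length and library size, with 3 libraries under every stem of the titles (KO1, NC1, NCO), all from cells at 72 h. The characteristics describe KO1 as wild-type cells given vehicle, NC1 as wild-type cells given decitabine, a drug that inhibits DNA methylation, and NCO as cells with CD36 knockdown given decitabine. All 3 groups thus share the line and the time, and only KO1 lacks the drug by its labels. The labels name neither the knockdown reagent nor the drug dose, and leave out whether the replicates are cultures of their own. The p-values therefore measure no more than the spread among these libraries, which may be technical.

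Guanylate-binding proteins are large GTPases of the dynamin superfamily that interferons induce, interferon gamma most strongly. They bind the membranes of bacteria and of the vacuoles that hold them, assemble into coats there and help to start inflammasome signalling through caspases. GBP1, GBP2 and GBP5 end in a motif for attachment of a lipid (prenylation), which anchors them to membranes, whereas GBP3 and GBP4 do not. In monocytes and macrophages these genes are commonly read as markers of interferon exposure.

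All 5 genes lie on the minus strand of chromosome 1 within 266.1 kb (GRCh38, from 89006679 to 89272804, positions of the table). The order along the chromosome is GBP3 (ENSG00000117226, from 89006679 to 89022894), GBP1 (ENSG00000117228, from 89052319 to 89065230), GBP2 (ENSG00000162645, from 89106132 to 89150456), GBP4 (ENSG00000162654, from 89181144 to 89198942) and GBP5 (ENSG00000154451, from 89258950 to 89272804). The family members GBP7 and GBP6 and the pseudogene GBP1P1 lie in the same stretch or just beyond it.

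Promoter windows are shown because the members were higher together in NC1 and NCO than in KO1, as the values below give. In RefSeq (GRCh38.p14), GBP1, GBP3 and GBP4 matched an entry and GBP2 and GBP5 did not. Each window holds 250 bases before the start of the gene and 50 after it, read 5′ to 3′ on the minus strand, at chr1:89065159-89065458 for GBP1, chr1:89022817-89023116 for GBP3 and chr1:89198893-89199192 for GBP4. Capitals mark matches to the interferon-stimulated response element, searched as GAAA, any 2 bases and GAAA on both strands, and, in GBP3 alone of the 3, a match to the gamma-activated site, searched as TTC, any 3 bases and GAA, which reads alike on both strands.
GBP1 promoter: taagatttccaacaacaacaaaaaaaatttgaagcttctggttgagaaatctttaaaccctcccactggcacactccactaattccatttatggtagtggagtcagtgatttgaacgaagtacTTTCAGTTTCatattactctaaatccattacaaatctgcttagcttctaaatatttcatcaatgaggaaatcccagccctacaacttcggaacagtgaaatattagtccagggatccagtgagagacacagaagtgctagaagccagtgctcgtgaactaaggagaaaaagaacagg
GBP3 promoter: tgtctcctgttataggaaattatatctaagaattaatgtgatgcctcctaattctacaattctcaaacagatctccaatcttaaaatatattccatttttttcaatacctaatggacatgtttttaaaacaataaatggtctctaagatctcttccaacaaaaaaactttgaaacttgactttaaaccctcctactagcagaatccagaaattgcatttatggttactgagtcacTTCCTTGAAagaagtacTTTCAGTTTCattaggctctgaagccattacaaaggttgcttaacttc
GBP4 promoter: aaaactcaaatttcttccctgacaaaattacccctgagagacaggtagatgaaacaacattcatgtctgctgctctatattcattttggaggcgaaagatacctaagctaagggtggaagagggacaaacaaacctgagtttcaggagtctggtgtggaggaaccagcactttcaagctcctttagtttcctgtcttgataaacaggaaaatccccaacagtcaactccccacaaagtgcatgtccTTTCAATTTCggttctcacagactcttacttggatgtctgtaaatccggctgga

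Each of the 3 windows held 1 match to the response element, on the strand opposite to the gene. It read TTTCAGTTTC in GBP1, at positions -127 to -118 counted from the gene start, TTTCAGTTTC in GBP3, at positions 3 to 12, and TTTCAATTTC in GBP4, at positions -4 to 6. Of 35116 promoter windows of this length, 3.57% held such a match. GBP1 and GBP3 shared an unbroken stretch of 19 bases around it, gaagtacTTTCAGTTTCat, which was the longest stretch that any pair of the 3 windows had in common. The gamma-activated site of GBP3, TTCCTTGAA at positions -15 to -7, did not overlap the response element, and 7.66% of all windows held one. CpG dinucleotides numbered 3 in GBP1, 0 in GBP3 and 3 in GBP4, against a median of 14 and a lower quartile of 4 over all windows. A count as low as 3 was common, at 24.5% of all windows, and a count of 0 was found in 3.96%. A match of letters is a description of the sequence and does not show binding.

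The CD36 level did not follow the labels. CD36 averaged 0.126 ± 0.0231 in KO1, 2.18 ± 0.373 in NC1 and 2.49 ± 0.341 FPKM in NCO (SD, n = 3), and the group labelled as knockdown was not called lower than NC1 (log2 difference 0.14, 95% confidence interval -0.11 to 0.38, limma adjusted p = 0.436), so differences are stated between stems. The labels of KO1 and NCO may be exchanged, which the files used here do not settle. If they were, NC1 against KO1 would compare wild type with knockdown under the drug, NCO against NC1 would compare vehicle with drug, and NCO against KO1 would keep both differences with its direction turned. The summed FPKM per library lay between 493061 and 530097, and the depth in reads is unknown. Genes encoded in mitochondria made up 14.5% to 15.3% of that sum in KO1, 14.5% to 17.6% in NC1 and 17.4% to 18.5% in NCO. Of 14 myeloid and leukaemia markers, 13 were tested and MEIS1 stayed below 1 FPKM in every library. The summed level of the 14 was 628 to 648 FPKM in KO1, 806 to 846 in NC1 and 743 to 784 in NCO, and most of that difference was CD68, a lysosomal protein of macrophages, with means of 72.1 ± 3.33, 240 ± 15.1 and 196 ± 1.57 FPKM. In NC1 minus KO1, 5 of the 13 were called higher and 1, FLT3, lower, against 28.9% and 18.3% of all genes tested. The FLT3 call (limma adjusted p = 0.0371) was lost with no filter on low values (0.0816) and without NC1 replicate 2 (0.142). CD4 (190 ± 2.55 and 182 ± 1.48) and SPI1 (163 ± 3.80 and 162 ± 10.1), the most abundant in KO1, were not called. T cell CD3D and CD3E were at 0, as were erythroid ALAS2 and endothelial CDH5. The summed level of 8 endothelial, stromal and epithelial markers, most of it PECAM1, was 21.7 to 22.9 in KO1, 29.1 to 31.1 in NC1 and 28.1 to 31.1 FPKM in NCO. These 2 sums were higher in NC1 and NCO than in KO1, as the guanylate-binding proteins were. The 7 lymphoid markers summed to 65.3 to 70.2 in KO1, 68.0 to 77.4 in NC1 and 56.8 to 58.8 FPKM in NCO, mostly NKG7 and NCAM1, and the 7 erythroid and megakaryocytic markers to at most 1.45 FPKM in any library. The part of the mitochondrial share and of these marker levels in the results was not tested.

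Values were compared as log2(FPKM + 1) in limma over all 9 libraries, with p-values adjusted over 12586 genes that reached 1 FPKM in at least 3 libraries. GBP2, GBP3 and GBP4 reached 1 FPKM in every library. GBP5 did so in every NC1 and NCO library but in only 1 of the 3 KO1 libraries, so that it passed through the groups where it was high. GBP1 reached it in 2 libraries, both of NC1, and was left out of the test. A fold change on this scale understates that of a gene with low values, so ratios of the mean FPKM are given beside it.

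NC1 against KO1 asks, if the characteristics are right, what decitabine changed in wild-type cells. The guanylate-binding proteins were between 2.19 and 14.9 times as high in NC1, with GBP5 and GBP1 showing the largest ratios and GBP3 the smallest. In bulk RNA, a change in the number of cells with a transcript and a change in the amount per cell cannot be told apart. For each of the 5 genes the lowest NC1 library lay above the highest KO1 library. Such separation was common here, at 56.5% of the genes tested and 32.1% of the 29350 genes above 0 in at least 1 library, and 47.2% of the genes tested were called, 28.9% as higher and 18.3% as lower in NC1. After trimmed-mean scaling these were 23.7% and 24.4%, and the members stayed higher. The number of members that rose is to be read against those shares.

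GBP5, which promotes assembly of the NLRP3 inflammasome, was at 0.974, 1.31 and 0.83 FPKM in KO1 and at 15.5, 15.6 and 15.4 in NC1. The NC1 libraries lay close together (15.5 ± 0.0625, SD, n = 3), and KO1 was more spread for its level (1.04 ± 0.246, n = 3). The ratio of the means was 14.9, and the log2 difference was 3.02 (95% confidence interval 2.81 to 3.23). Ranked from the highest, this difference was number 16 among the 12586 genes tested. GBP5 entered that test through NC1 and NCO, where it was high, so no p from it is given. With no filter on low values the limma adjusted p was 6.87e-07.

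GBP2, a prenylated member that with GBP5 limits furin processing of viral surface proteins, was at 1.75, 1.85 and 1.79 FPKM in KO1 and at 8.73, 8.79 and 8.04 in NC1. GBP4, which joins the coats that GBP1 builds on bacteria, was at 1.86, 1.8 and 1.47 in KO1 and at 7.96, 7.83 and 8.67 in NC1. These 2 genes had nearly the same levels in both groups, and their libraries overlapped within each group. The ratio of the means was 4.74 for GBP2, with a log2 difference of 1.77 (1.60 to 1.93, adjusted p = 1.27e-08), and 4.77 for GBP4, with a log2 difference of 1.76 (1.58 to 1.94, adjusted p = 2.64e-08). They ranked 62 and 63 from the highest.

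GBP3, a member without the prenylation motif, was at 1.93, 1.97 and 2.28 FPKM in KO1 and at 4.34, 4.68 and 4.54 in NC1. It was the most abundant member in KO1 and rose the least of the 4 tested, by a ratio of 2.19 and a log2 difference of 0.85 (0.68 to 1.03, adjusted p = 7.76e-06 in limma). Its rank was 427 from the highest. Its interval did not overlap those of GBP2, GBP4 and GBP5, although the difference between members was not itself tested.

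GBP1, which senses bacterial lipopolysaccharide and recruits caspase-4 to it, was the least abundant member in every group. It was at 0.139, 0.0852 and 0.0909 FPKM in KO1 and at 1.68, 1.40 and 0.919 in NC1. The groups did not overlap, and NC1 replicate 3 lay below the other NC1 libraries. The ratio of the means was 12.7, but the KO1 level is low and its counting error is unknown. The exact permutation p, two-sided, was 0.1, the smallest p that 3 against 3 allows. With no filter on low values GBP1 entered the limma fit, with a log2 difference of 1.06 and an adjusted p of 0.000522.

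**Figure D1:**
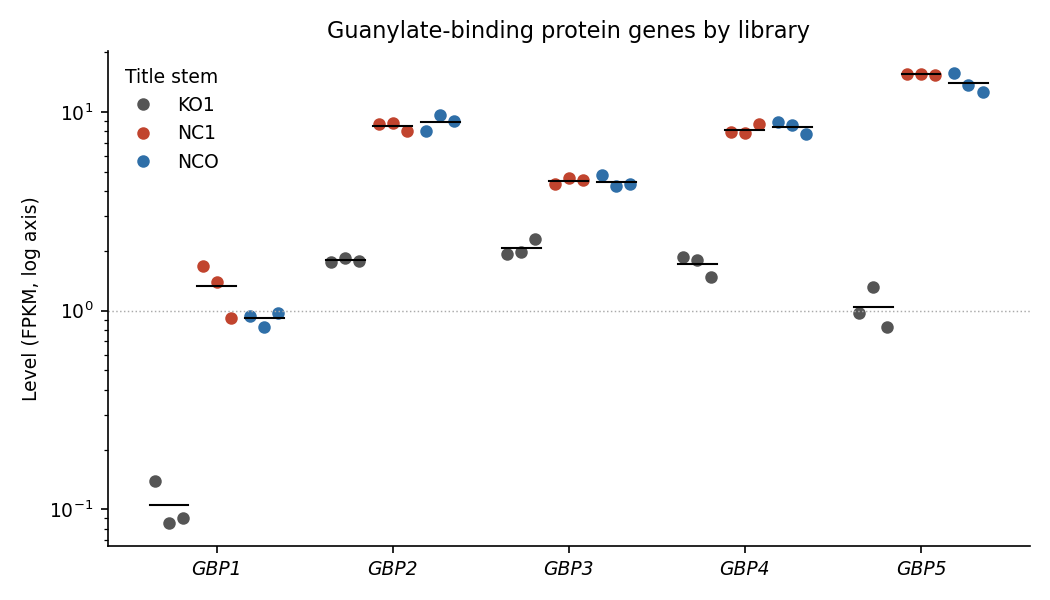
Level of each gene in FPKM on a log axis, by library, with KO1 in grey, NC1 in red, NCO in blue, a bar for the mean of 3 libraries and a dotted line at 1 FPKM. KO1 lies below NC1 and NCO for every gene, and NC1 and NCO overlap for every gene.

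NCO against NC1 asks, if the characteristics are right, what the knockdown changed under the drug, although CD36 itself was not lower. Of the 4 members tested, 0 were called in limma, and 0 had an unadjusted p under 0.05. NC1 and NCO libraries overlapped for each of the 5 genes, whereas they did not overlap for 34.3% of the genes tested and for 18.9% of those above 0 in at least 1 library. Of the genes tested, 14.7% were called, 6.12% as higher and 8.62% as lower in NCO.

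GBP5 was at 15.7, 13.6 and 12.6 FPKM in NCO, a mean of 14.0 ± 1.55 (SD, n = 3) against 15.5 ± 0.0625 in NC1. NCO replicate 1 exceeded every NC1 library and the other 2 lay below them. The log2 difference was -0.14 (95% confidence interval -0.36 to 0.07, limma adjusted p = 0.333), an interval that runs from 0.782 to 1.05 times on the FPKM + 1 scale.

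GBP2 was at 8.02, 9.62 and 9.03 FPKM in NCO, with a log2 difference from NC1 of 0.05 (-0.11 to 0.22, adjusted p = 0.674). GBP4 was at 8.86, 8.61 and 7.73, with a difference of 0.04 (-0.14 to 0.22, adjusted p = 0.796). GBP3 was at 4.84, 4.24 and 4.32, with a difference of -0.01 (-0.19 to 0.16, adjusted p = 0.925). For these 3 genes the intervals allow a change of at most 0.877 to 1.16 times on the FPKM + 1 scale, and the sign of the GBP3 difference depended on the scaling and on single libraries.

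GBP1 was at 0.943, 0.832 and 0.974 FPKM in NCO, which gives a mean of 0.917 ± 0.0747 (SD, n = 3) against 1.33 ± 0.384 in NC1. NC1 replicate 3, at 0.919, lay within the NCO range and the other 2 NC1 libraries lay above it. The exact two-sided permutation test gave p = 0.3, and with no filter the limma adjusted p was 0.313.

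Against KO1, the members stood nearly as far apart in NCO as in NC1. These 2 comparisons share the KO1 libraries. The log2 difference of NCO minus KO1 was 2.88 for GBP5 (95% confidence interval 2.67 to 3.09, limma adjusted p = 1.22e-06 with no filter on low values). It was 1.82 for GBP2 (1.65 to 1.99, adjusted p = 1.34e-08 in limma), 1.8 for GBP4 (1.61 to 1.98, adjusted p = 2.6e-08) and 0.84 for GBP3 (0.66 to 1.01, adjusted p = 8.97e-06). As ratios of the means these are 13.5, 4.95, 4.91 and 2.17, and GBP1 had a ratio of 8.71. NCO and KO1 libraries did not overlap for any of the 5 genes, which held for 61.2% of the genes tested and 34.1% of the genes above 0 in at least 1 library, and 52.2% of the genes tested were called, 32.1% as higher and 20.1% as lower in NCO.

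**Figure D2:**
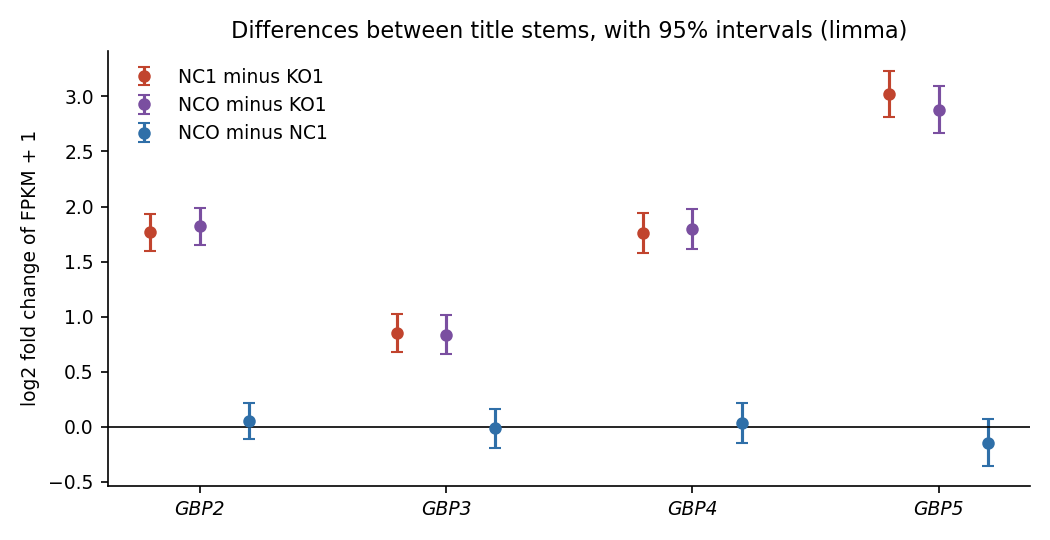
Log2 fold change of FPKM + 1 for the 4 members tested, with 95% confidence intervals from limma, for NC1 minus KO1 (red), NCO minus KO1 (purple) and NCO minus NC1 (blue). The comparisons with KO1 lie from 0.84 to 3.02 and each interval of NCO minus NC1 includes 0.

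The make-up of the family differed between KO1 and the other groups. The summed level of the 5 genes averaged 6.71 ± 0.281 in KO1, 38.0 ± 0.359 in NC1 and 36.7 ± 1.85 FPKM in NCO (SD, n = 3). GBP3 held 30.8% ± 3.95 of that sum in KO1 but 11.9% ± 0.461 in NC1 and 12.2% ± 0.620 in NCO. GBP5 held 15.4% ± 2.98 in KO1, 40.8% ± 0.254 in NC1 and 38.1% ± 2.44 in NCO. The KO1 libraries did not overlap the others for either share. GBP2 and GBP4 held between 20.5% and 27.9% of the sum in every library, and GBP1 at most 4.39%. The GBP2 share was also apart, at 26.3% to 27.6% in KO1 and at most 26.05% elsewhere. So was that of GBP1, at most 2.09% in KO1 and at least 2.25% elsewhere, while the GBP4 share overlapped. By mean level the order in KO1 was GBP3, GBP2, GBP4, GBP5 and GBP1, and in both other groups it was GBP5, GBP2, GBP4, GBP3 and GBP1. In each group only GBP2 and GBP4, neighbours in that order, overlapped. These shares are descriptions and were not tested.

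**Figure D3:**
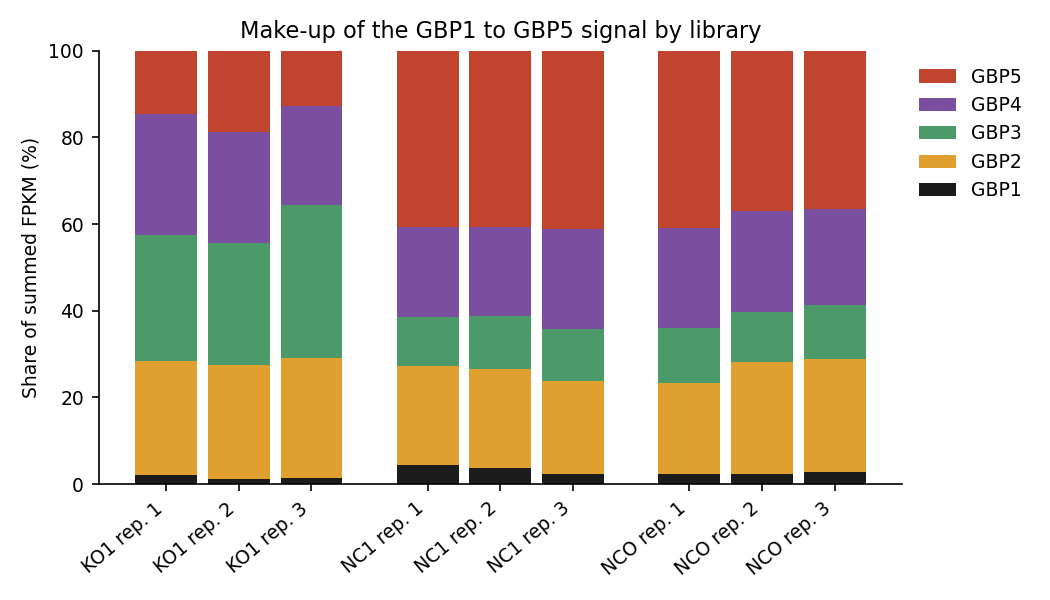
Share of the summed FPKM of GBP1 to GBP5 held by each gene, in percent, as 1 stacked bar per library. GBP3 makes up 28.0% to 35.3% of the bar in KO1 and at most 12.6% elsewhere, whereas GBP5 makes up at least 36.4% in NC1 and NCO.

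Similar sequences can share reads, so the overlap was measured on GENCODE 29 transcripts as the share of windows of a gene that recur exactly in another member. Of 50-base windows, 9.62% recurred in the family for GBP1, 10.2% for GBP2, 4.40% for GBP3, 0.309% for GBP4 and 0% for GBP5. At 100 bases the shares were 1.09% for GBP1, all with the pseudogene GBP1P1, 8.42% for GBP2, all with GBP7, and 0% for the other 3. With genes outside the family, GBP4 shared 3.72% of its 50-base windows, GBP5 0.396%, GBP3 0.368% and GBP1 and GBP2 0%, and at 100 bases only GBP4 shared any, 0.0975%. The spans of GBP2 and GBP7 overlap by 18.7 kb on the same strand in the table, and the table lists antisense transcripts that overlap GBP2, GBP4 and GBP5. The one at GBP4, AC099063.4, reached at most 0.2 FPKM, and the other two, AC104459.1 and AC099063.1, were listed at 0 in all 9 libraries. No source used here says how shared reads or strands were counted, so these values carry that uncertainty, GBP1 and GBP2 with the largest shares.

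The remaining members of the family were near silent. GBP6 was at 0.00829 FPKM in KO1 replicate 1 and listed at 0 in the other 8 libraries. GBP7 was at most 0.0612 FPKM in any library. The pseudogene GBP1P1 (ENSG00000225492, plus strand, from 89407679 to 89426243) was at 0.0969, 0.0827 and 0.132 in KO1, at 1.05, 1.04 and 1.07 in NC1 and at 0.674, 0.686 and 0.587 FPKM in NCO. The NC1 libraries lay above the NCO libraries and these above the KO1 libraries, without overlap. GBP1P1 passed the filter through NC1 alone, so these values are a description and no p is given.

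The genes that lead from interferon gamma to the guanylate-binding proteins were followed as a list of 12, from the receptor to the factors it activates and the genes that restrain it. IFNG, which encodes interferon gamma itself, was listed at 0 in all 9 libraries. Of the 11 others, 6 were higher in NC1 than in KO1 and 1 was lower, against 28.9% and 18.3% of all genes tested, and the median log2 difference was 0.40 against 0.06. The receptor-bound kinase JAK2 averaged 1.35 ± 0.0608 in KO1, 3.90 ± 0.296 in NC1 and 5.55 ± 0.310 FPKM in NCO (SD, n = 3). The transcription factor IRF1, a direct activator of GBP genes, was at 14.1 ± 1.97, 25.8 ± 0.669 and 25.6 ± 0.828. In NC1 minus KO1 the limma adjusted p was 1.22e-06 for JAK2 and 1.05e-05 for IRF1. Also among those that rose were the class II activator CIITA and the brakes SOCS1 and PTPN2 (adjusted p = 0.00107, 0.00627 and 0.0021). The gene that fell was IRF8, a myeloid transcription factor, from 122 ± 3.67 to 100.4 ± 3.81 FPKM.

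Between NCO and NC1, JAK2 was higher in NCO (log2 difference 0.42, adjusted p = 0.00693 in limma) and IRF1 had a difference of -0.01 (adjusted p = 0.965). JAK1 was higher as well (0.27, adjusted p = 0.0321), a call that 7 alternatives ended, among them the fit without NCO replicate 1 (adjusted p = 0.11). These were the 2 of 11 that were higher, against 6.12% of all genes tested, while 1 was lower, against 8.62%. The list had a median of -0.05 against 0.01 over all genes tested. In NCO minus KO1, 6 were higher and 2, IRF8 and the receptor subunit IFNGR2, were lower, against 32.1% and 20.1% of all genes tested. The call of IFNGR2 (adjusted p = 0.0243) ended in 7 alternatives, at 0.635 with mitochondrial genes removed, and that of IRF8 (0.00152) in that alternative alone, at 0.0631.

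Type I interferon also induces these genes. In its list of 9, IFNA1 was listed at 0 in every library, and 4 of the 8 others were higher in NC1 than in KO1, against 28.9% of all genes tested, with a median log2 difference of 0.26 against 0.06. That count includes IFNB1. No gene of this list was lower in limma, against 18.3% of all genes tested, also at an unadjusted p under 0.05. IFNB1, which encodes interferon beta, averaged 0.0469 ± 0.0583 in KO1, 5.01 ± 1.38 in NC1 and 4.55 ± 0.360 FPKM in NCO (SD, n = 3). IFNB1 reached 1 FPKM in no KO1 library and entered the test through NC1 and NCO, so it had to differ from KO1, and no p is given for it. The others were USP18, a brake on the receptor (5.17 ± 0.955 and 14.3 ± 0.446 FPKM in KO1 and NC1), the interferon regulatory factor IRF7 (16.9 ± 0.470 and 30.4 ± 1.96) and STAT2 (19.6 ± 1.63 and 27.5 ± 1.97). In NCO 1 of the 8 was lower than in NC1, against 8.62% of all genes tested. This was IRF7, at 18.6 ± 1.46 FPKM (log2 difference -0.69, limma adjusted p = 0.000338). In NCO minus KO1, 3 of the 8 were higher, namely IFNB1, STAT2 and USP18, against 32.1% of all genes tested.

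The large GTPases related to the family that also respond to interferon are MX1 and MX2. MX1, an antiviral GTPase, averaged 1.02 ± 0.299 in KO1, 7.22 ± 0.778 in NC1 and 4.67 ± 0.421 FPKM in NCO. MX2, which restricts HIV, was at 5.17 ± 0.0669, 11.9 ± 0.634 and 7.48 ± 0.456. Both were higher in NC1 than in KO1 (adjusted p = 1.65e-07 and 3.1e-07 in limma) and lower in NCO than in NC1, by -0.53 on the log2 scale for MX1 (adjusted p = 0.0136) and -0.60 for MX2 (adjusted p = 0.000522). The call of MX1 ended without NCO replicate 1 (adjusted p = 0.0522) and with no filter (adjusted p = 0.0658). The difference between MX and GBP genes was not itself tested. Of the atlastins, GTPases of the endoplasmic reticulum, ATL3 was called higher in NC1 than in KO1 and ATL2 higher in NCO than in NC1, and both calls ended in some alternatives, at adjusted p = 0.138 for ATL3 after quantile normalization and 0.0702 for ATL2 without NC1 replicate 1. In the list of 8, with 5 tested, 3 were thus higher in NC1 than in KO1, 1 was higher and 2 lower in NCO than in NC1, and 4 were higher in NCO than in KO1, against 28.9% higher, 6.12% higher, 8.62% lower and 32.1% higher of all genes tested.

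**Figure D4:**
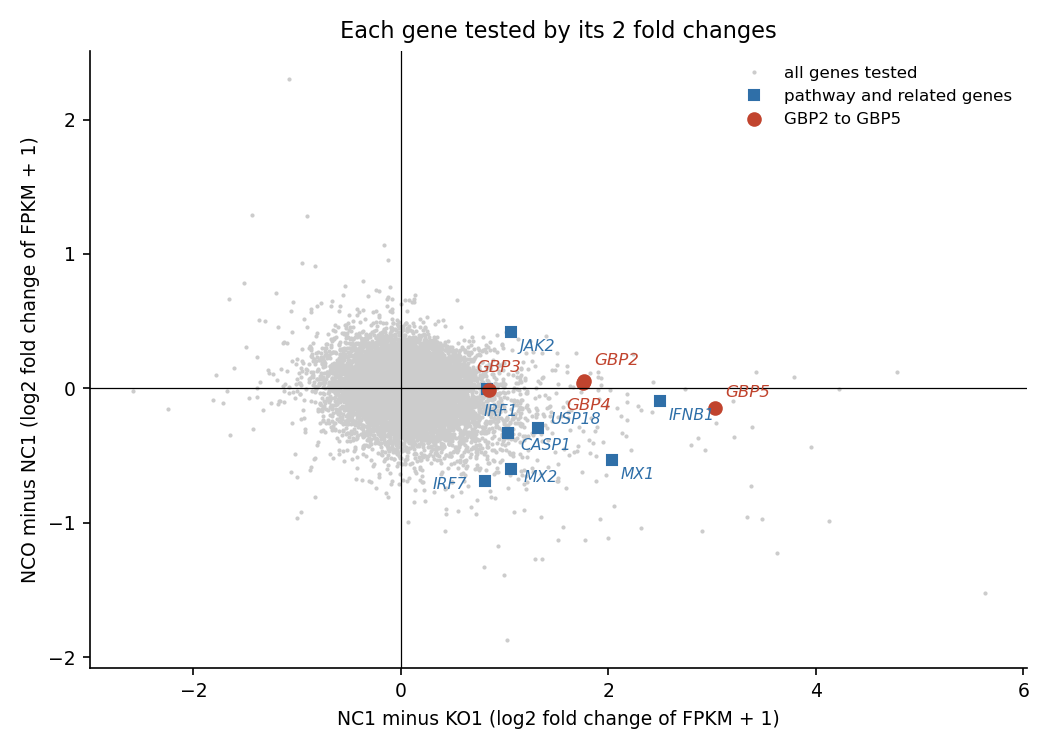
Each of the 12586 genes tested (grey) by its log2 fold change of FPKM + 1 in NC1 minus KO1 (horizontal) and in NCO minus NC1 (vertical), with the 4 tested members in red and named pathway genes in blue. The members lie to the right near the horizontal axis, between -0.14 and 0.05 on the vertical one, while MX1, MX2 and IRF7 lie between -0.53 and -0.69. The axes share the NC1 libraries.

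The enzymes that prenylate GBP1, GBP2 and GBP5 and the factors that hold GBP1 back formed a list of 9, of which 8 were tested. In NC1 minus KO1, 3 were higher and 3 lower, against 28.9% and 18.3% of all genes tested. PGGT1B, a subunit of a prenyl transferase, rose from 0.915 ± 0.0937 to 1.53 ± 0.0597 FPKM. It reached 1 FPKM in only 1 KO1 library and was tested through the groups where it was higher, so no p is given for it. The synthase GGPS1, which makes the substrate of that transferase, rose from 8.03 ± 0.616 to 10.6 ± 0.691. The CAAX protease RCE1 rose from 7.76 ± 0.118 to 10.1 ± 0.190 (limma adjusted p = 0.00204 for GGPS1 and 0.00114 for RCE1). The farnesyltransferase subunit FNTB fell from 5.90 ± 0.232 to 4.38 ± 0.597 (adjusted p = 0.0107). ICMT and FDPS were called lower as well, with adjusted p = 0.0142 and 0.042, but with mitochondrial genes removed these became 0.0595 and 0.469. In NCO minus NC1 FDPS was called higher and RCE1 lower, and both calls ended without NCO replicate 2 (adjusted p = 0.0515 and 0.107). In NCO minus KO1, 2 were higher, PGGT1B and GGPS1 (limma adjusted p = 0.00753 for GGPS1), against 32.1% of all genes tested. No gene of this list was lower there in limma, against 20.1% of all genes tested. At an unadjusted p under 0.05, 1 was lower, while trimmed-mean scaling gave 2 higher and 2 lower and mitochondrial removal 5 higher.

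Downstream, the list of caspases and their partners held 13 genes, 10 of them tested. In NC1 minus KO1, 6 were higher and 1 lower, against 28.9% and 18.3% of all genes tested, with a median log2 difference of 0.27 against 0.06. CASP1, which cleaves interleukin-1 beta, averaged 9.30 ± 0.246 in KO1, 20.1 ± 0.971 in NC1 and 15.8 ± 1.66 FPKM in NCO. CASP4, the caspase that GBP1 recruits, was at 35.7 ± 3.00, 48.3 ± 1.63 and 51.0 ± 1.82. APOL3, which breaks bacterial membranes after the coat has formed, was at 1.30 ± 0.112, 4.20 ± 0.530 and 3.10 ± 0.710. The adjusted p in NC1 minus KO1 was 1.03e-06 for CASP1, 0.000211 for CASP4 and 2.31e-05 for APOL3 in limma. The inflammasome sensor NLRP3 was lower (25.2 ± 1.44 and 21.7 ± 0.450, adjusted p = 0.00876), a call that ended with mitochondrial genes removed (adjusted p = 0.062).

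In NCO minus NC1, 3 of these 10 were lower, against 8.62% of all genes tested, with a median of -0.17 against 0.01. In limma 0 were higher, against 6.12%. At an unadjusted p under 0.05, 5 were lower and 0 higher, but the share of all genes at that threshold was not computed. The 8.62% is no background for that count. The adaptor PYCARD averaged 127 ± 7.14 in NC1 and 101 ± 3.34 FPKM in NCO (adjusted p = 0.00214), and the pore-forming GSDMD at 44.4 ± 1.89 and 35.9 ± 0.739 (adjusted p = 0.00369). CASP1 was lower as well (adjusted p = 0.0148, or 0.062 with no filter). CASP4 differed by 0.08 (adjusted p = 0.425). In NCO minus KO1, 5 were higher and 3 lower, against 32.1% and 20.1% of all genes tested. Among those higher were CASP8 and the ubiquitin ligase RNF213. Those lower were PYCARD, NLRP3 and the cytokine gene IL1B (limma adjusted p = 7.9e-05, 0.0225 and 0.000839). The call of NLRP3 ended in 5 alternatives, at 0.622 with mitochondrial genes removed. CASP5, AIM2 and ZBP1 stayed below 1 FPKM in every library and were not tested.

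Genes with the most similar pattern were sought among 11624 tested genes with an official symbol, by the distance between the log2 differences of NC1 minus KO1 and of NCO minus NC1. Among the 3 nearest to GBP2 were GCH1, an enzyme of tetrahydrobiopterin synthesis, and the checkpoint kinase CHEK2, at distances of 0.0799 and 0.0848. Both were also among the 3 nearest to GBP4, at 0.0978 for GCH1 and 0.0669 for CHEK2. CHEK2 averaged 17.8 ± 1.52 in KO1, 61.4 ± 1.74 in NC1 and 60.3 ± 2.02 FPKM in NCO. Nearest to GBP3 were PSD3, the inhibitory receptor LILRB1 and IRF1, at 0.0111, 0.0156 and 0.018. Nearest to GBP5 were TESC, a calcium-binding protein, the antiviral gene IFIT1 and PLEKHA4, at 0.115, 0.187 and 0.276. Unlike GBP5, PLEKHA4 was called lower in NCO than in NC1 (log2 difference -0.37, limma adjusted p = 0.0087). TESC was not called (-0.26, adjusted p = 0.06), but was in some alternatives, at 0.0199 with only the 2 groups compared. IFIT1 was at 0.502 ± 0.103, 12.9 ± 1.23 and 12.0 ± 1.01 FPKM. The measure rests on 9 libraries in 3 groups, and many genes share so simple a pattern.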

How the data were processed

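RNA sequencing of MV4-11 cells was analysed in 9 libraries, 3 for each title stem, which defined the groups. The authors deposited 1 value per gene and library. The header names no unit. The fractional values and the mention of StringTie point to FPKM, and the submitters' processing notes list CASAVA 1.8, Trimmomatic, FastQC, HISAT2, StringTie, edgeR and GRCh38, without roles. The annotation release is not given in the sources used here. Low FPKM values were searched for single-read steps: between replicates, no single ratio was shared by more than 0.333% of genes below 0.1 FPKM, so reads were not recovered and depth is unknown.

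Values were analysed as log2(FPKM + 1) with limma 3.58.1 (R 4.3.3, trend, robust), 1 mean per group, with two-sided p-values adjusted by Benjamini-Hochberg over 12586 genes with at least 1 FPKM in at least 3 libraries. A gene was called at an adjusted p under 0.05. Intervals cover 95%. The fit was tested on simulated data. Members, gene lists and the tests were chosen with earlier results of these data known. Named were all members, IRF1, up to 3 called genes per list and comparison by adjusted p, members of counts of 5 or fewer, the 3 nearest genes per tested member and tested genes within 1 Mb, and GBP1P1, IRF9, IFNA1, IFNG, CASP5, AIM2, ZBP1 and the antisense transcripts were added after their values were seen. Some genes that this rule takes are not reported here. Lists were described by counts and medians, without a set test. Shares over all genes were computed at the adjusted p only, so counts at an unadjusted p have none beside them. Pseudocounts, filters, scalings, the empirical Bayes step, a replicate block and single libraries were varied. Same-numbered libraries deviated together at -0.101 to 0.0797 over 9 pairs, so numbers do not pair the samples.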

Additional observations from a re-analysis of the deposited data

How the results depend on the processing

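GBP5 entered every filtered fit through NC1 and NCO, as did GBP2 and GBP4 with the filter at 5 FPKM. The filter thus favoured those calls against KO1. With that limit, for GBP2, GBP4 and GBP5 under 19 alternatives and GBP3 under 18, both comparisons with KO1 stayed called and higher. Their log2 difference in NC1 minus KO1 lay between 1.66 and 2.18 for GBP2, 0.73 and 1.10 for GBP3, 1.65 and 2.19 for GBP4 and 2.93 and 3.799 for GBP5, with the highest adjusted p at 0.000119. None of the 4 was called in NCO minus NC1 under any of these alternatives, with adjusted p from 0.183 to 0.998, but the difference of GBP3 changed sign, from -0.01 to 0.042 with mitochondrial genes removed, and ran from -0.063 to 0.015 when 1 library was left out. Single libraries also moved the other small differences of NCO minus NC1 by over 1.5 times, to 0.00035 for GBP2 without NCO replicate 2, 0.0021 for GBP4 and -0.22 for GBP5 without NCO replicate 1, -0.079 for GBP5 without NCO replicate 3, -0.16 for GBP1 without NC1 replicate 1 and 0.044 for CD36 without NC1 replicate 2, against 0.05, 0.04, -0.14, -0.27 and 0.14 with all libraries. GBP1, under the filter, depended on the pseudocount: NC1 minus KO1 was 1.06, or 1.58 and 2.78 with pseudocounts of 0.5 and 0.1, NCO minus KO1 was 0.79, or 1.23 and 2.32, and 0.94 with mitochondrial genes removed, and NCO minus NC1 was -0.27, or -0.46 with 0.1. With mitochondrial genes removed GBP1 passed the filter, but through libraries outside KO1, where it was higher, so no p against KO1 is given for that setting. The cause of these changes was not tested, other than that a smaller pseudocount enlarges differences of low values by construction. The number of genes called in NCO minus NC1 was 1855, 781 with no filter (29350 genes tested) and between 908 and 1708 with 1 library left out, with 1076 without NC1 replicate 2, 1055 without NCO replicate 1 and 908 without NCO replicate 2. The balance of calls depended on scaling, as 3637 higher and 2300 lower in NC1 minus KO1 became 2989 and 3076 with trimmed-mean scaling, 2736 and 3078 with quantile normalization and 4600 and 1756 without mitochondrial genes. In NCO minus NC1, 770 and 1085 became 1072 and 923 with quantile normalization and 1691 and 745 without mitochondrial genes, and in NCO minus KO1, 4041 and 2527 became 3216 and 3350, 3027 and 3080, and 5911 and 1634 in the same 3 settings. Mitochondrial removal moved the median of all genes in NCO minus KO1 from 0.08 to 0.20. Replicate numbers share no stated origin, and the replicate block gave 5618 genes called in NC1 minus KO1, 1389 in NCO minus NC1 and 6230 in NCO minus KO1, against 5937, 1855 and 6568 without it, and changed no call of a member. Depth is unknown and limits GBP1 most.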

Other observations

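The genes around the cluster on chromosome 1 were followed as well. Within 1 Mb of GBP1 to GBP5 lay 11 other tested genes outside the family. In NC1 minus KO1, 5 were higher and 1 lower, against 28.9% and 18.3% of all genes tested. The 5 include LRRC8B, which entered the test through the groups where it was higher. The log2 differences of the 11 genes ran from -0.35 to 0.45, below the 0.85 of GBP3. The RNA-binding protein gene RBMXL1 averaged 2.11 ± 0.0777 in KO1 and 3.25 ± 0.222 FPKM in NC1 (SD, n = 3, limma adjusted p = 0.000545) and the general transcription factor GTF2B at 10.5 ± 0.949 and 13.7 ± 0.856 (adjusted p = 0.00332). RBMXL1 overlaps the span of KYAT3 on the same strand, and KYAT3 was the gene that fell, at 7.19 ± 0.456 and 5.50 ± 1.10 (adjusted p = 0.0343), a call that ended with no filter on low values (adjusted p = 0.115) and without NC1 replicate 2 (adjusted p = 0.125). The calls of ZNF326 and of the channel subunit genes LRRC8B and LRRC8D ended in some alternatives as well. Without NC1 replicate 3 the limma adjusted p was 0.0648 for ZNF326 and 0.0996 for LRRC8D. LRRC8B reached 1 FPKM in no KO1 library and was tested through the groups where it was higher, so no p is given for it. In NCO minus NC1, 0 of the 11 were called in limma, against 6.12% higher and 8.62% lower of all genes tested. At an unadjusted p under 0.05 the count was 0 as well, and the differences ran from -0.22 to 0.18.

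IRF9, which joins STAT2 in the factor that binds the response element, varied widely between replicates, with means of 7.68 ± 3.91 in KO1, 4.87 ± 2.48 in NC1 and 3.23 ± 0.215 FPKM in NCO (SD, n = 3). It was not called in NC1 minus KO1 (limma adjusted p = 0.357) but was called lower without KO1 replicate 2 (adjusted p = 0.0309).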
